A study of Caenorhabditis elegans with 2 samples.

Results

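Caenorhabditis elegans has 3 POU homeobox genes, unc-86, ceh-6 and ceh-18, and all 3 were examined here among the 19973 protein-coding genes annotated on chromosomes I to V and X. They were taken by family membership, not by any measured value, and all 3 were found in the Ensembl release 115 annotation of the WBcel235 (ce11) build. The unc-86 gene (WBGene00006818) lies on chromosome III from 8212740 to 8216336. The ceh-6 gene (WBGene00000431) lies on chromosome I from 8498112 to 8502604, and ceh-18 (WBGene00000441) on chromosome X from 3843367 to 3857797. All 3 are on the minus strand. The data are chromatin immunoprecipitation sequencing (ChIP-seq) of tagged UNC-86, so unc-86 is the gene of the precipitated factor and the other 2 are its paralogs. The animals were hermaphrodites of strain OP476, genotype unc-119(tm4063) III; wgIs476, taken as late embryos at 3.5 h after their synchronization by bleaching. The integrated transgene wgIs476 expresses UNC-86 with GFP and FLAG at its C-terminus, and sonicated chromatin of whole animals was precipitated with an antibody to GFP. The samples were 2 biological replicates of 1 group, with no second strain, stage or treatment. The extent of the unc-86 sequence in the transgene, its copy number and the strain of the control are not stated in any of the labels or files. No mutation of unc-86 is listed in the genotype, so reads from the transgene and from the gene on its chromosome cannot be told apart at unc-86.

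POU proteins bind DNA through a POU-specific domain and a homeodomain joined by a flexible linker. UNC-86 belongs to the class IV (Brn-3) branch and sets the identity of many kinds of neuron. In touch receptor neurons it acts with the LIM homeodomain protein MEC-3. CEH-6 belongs to class III and is needed for the excretory canal cell, for some neurons and for the change of a rectal cell into a neuron. CEH-18 acts in the sheath cells of the gonad and takes part in holding oocytes in meiotic arrest.

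The authors deposited 4 peak lists in this build. The IDR list held the 816 peaks that passed their irreproducible discovery rate step, the pooled list 12784 entries from both replicates together, and the lists of replicates 1 and 2 17498 and 18470. The last 3 hold peaks and background regions and include many weak entries. Each entry has a summit, the base of highest enrichment, and a signal value from the authors' peak caller. Signals and ranks were read within a list and not between lists, and rank 1 is the highest signal. The signal of the pooled list ran from 25.6 to 838 with a median of 31.8. The number of reads per library is unknown, so no counting interval is given.

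The sequences around the summits that set unc-86 apart are shown first. They are the 4 IDR summits at unc-86, the strongest pooled summit beyond its 3′ end and, for contrast, the pooled summit closest to the start of ceh-18. Each stretch has 241 bases of the plus strand, with the summit at its centre, from the RefSeq sequence of WBcel235. Capitals mark matches, on either strand, to 5 patterns. These were the octamer ATGCAAAT, the POU subsite AATGCAT of the mec-3 promoter type, the homeodomain core TAATTA, its extension TAATTAAT and the repeat GAGAGAGA. Since unc-86 and ceh-18 lie on the minus strand, the right end of each stretch is the upstream one.

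First intron of the longer unc-86 transcript, chrIII:8215076-8215316: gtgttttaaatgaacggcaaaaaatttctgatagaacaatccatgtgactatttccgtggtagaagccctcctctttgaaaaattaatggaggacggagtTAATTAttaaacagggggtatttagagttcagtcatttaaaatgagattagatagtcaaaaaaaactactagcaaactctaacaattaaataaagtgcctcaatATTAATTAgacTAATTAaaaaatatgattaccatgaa
Start of the longer unc-86 transcript, chrIII:8216241-8216481: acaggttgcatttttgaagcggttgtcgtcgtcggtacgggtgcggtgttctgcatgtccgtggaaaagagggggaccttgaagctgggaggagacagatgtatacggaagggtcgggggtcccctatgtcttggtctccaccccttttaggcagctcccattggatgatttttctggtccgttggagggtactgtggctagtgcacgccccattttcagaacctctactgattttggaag
Upstream of unc-86, near summit, chrIII:8217447-8217687: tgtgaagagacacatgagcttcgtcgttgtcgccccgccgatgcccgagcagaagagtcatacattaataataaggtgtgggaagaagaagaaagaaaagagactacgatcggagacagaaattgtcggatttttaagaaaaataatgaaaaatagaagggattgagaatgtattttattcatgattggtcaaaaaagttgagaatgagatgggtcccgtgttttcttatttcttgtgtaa
Upstream of unc-86, far summit, chrIII:8220183-8220423: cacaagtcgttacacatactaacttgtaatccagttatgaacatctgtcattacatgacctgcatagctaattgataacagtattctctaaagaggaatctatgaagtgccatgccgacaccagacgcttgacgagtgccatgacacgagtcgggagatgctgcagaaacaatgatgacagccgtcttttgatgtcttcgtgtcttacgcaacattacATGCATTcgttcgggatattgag
3′ flank of unc-86, chrIII:8212249-8212489: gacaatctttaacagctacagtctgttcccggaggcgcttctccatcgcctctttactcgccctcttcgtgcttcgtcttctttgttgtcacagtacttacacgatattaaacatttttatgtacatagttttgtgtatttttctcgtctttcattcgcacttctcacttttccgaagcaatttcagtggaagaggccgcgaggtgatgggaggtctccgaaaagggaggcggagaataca
Upstream of ceh-18, chrX:3860130-3860370: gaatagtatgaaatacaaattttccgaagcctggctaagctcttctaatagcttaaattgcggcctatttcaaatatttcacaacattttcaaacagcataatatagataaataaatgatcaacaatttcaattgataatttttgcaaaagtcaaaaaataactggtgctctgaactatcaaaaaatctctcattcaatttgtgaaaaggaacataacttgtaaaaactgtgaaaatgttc

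In the intron stretch, TAATTA begins 20 bases before the summit, and an extended site with a further core lies 84 to 100 bases after it. The stretch at the far upstream summit holds a POU subsite that begins 98 bases after the summit. The other 4 stretches have no match, and no printed stretch holds the octamer or the repeat. A match is a description of the letters and not a binding site.

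The unc-86 gene stood in one of the densest clusters of summits in the genome, and its paralogs did not. Within 10 kb of unc-86 lay 4 IDR summits, 14 pooled summits, 14 of replicate 1 and 13 of replicate 2. Within 10 kb of ceh-6 the same lists had 0, 2, 6 and 3 summits, and within 10 kb of ceh-18 they had 0, 3, 4 and 6. The median protein-coding gene had 0, 2, 3 and 4, so unc-86 was far above the median in all 4 lists. The lists are not separate observations. The 4 IDR summits are among the 14 pooled ones, with the same signals and ranks, and both lists come from the same 2 replicates. The paralogs were at or within 1 of the median, except for the 6 summits of ceh-6 in replicate 1 and of ceh-18 in replicate 2.

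Counts at least as high as those of unc-86 were found at 10 genes in the IDR list, which is 0.0501% of the 19973, and at 0.275% in the pooled list. The shares were 0.686% in replicate 1 and 1.68% in replicate 2. All such counts here include the gene itself. The 10 genes are not 10 separate places. They include the neighbours C30A5.16 and mob-4, which hold the same 4 IDR summits as unc-86. The rest are epc-1 and a group of genes side by side on chromosome II, from 11954508 to 11972330. For ceh-6 the counts were reached by 64.3% of genes in the pooled list, 23.3% in replicate 1 and 65.9% in replicate 2. For ceh-18 the shares were 45.9%, 48.3% and 25.6%. At least 1 IDR summit within 10 kb was found at 17.8% of genes and at least 1 pooled summit at 84.0%, so the absence of IDR summits at the paralogs is the common state. Taking the strongest peaks of one replicate in the same number as the IDR list, unc-86 had 2 without replicate 1 and 4 without replicate 2, and 495 and 19 genes had at least as many. With the single replicate lists cut to the length of the pooled list, 128 genes without replicate 1 and 163 without replicate 2 had at least as many summits as unc-86. In each replicate unc-86 was above the median gene, and more genes reached its count than in the lists from both.

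**Figure D1:**
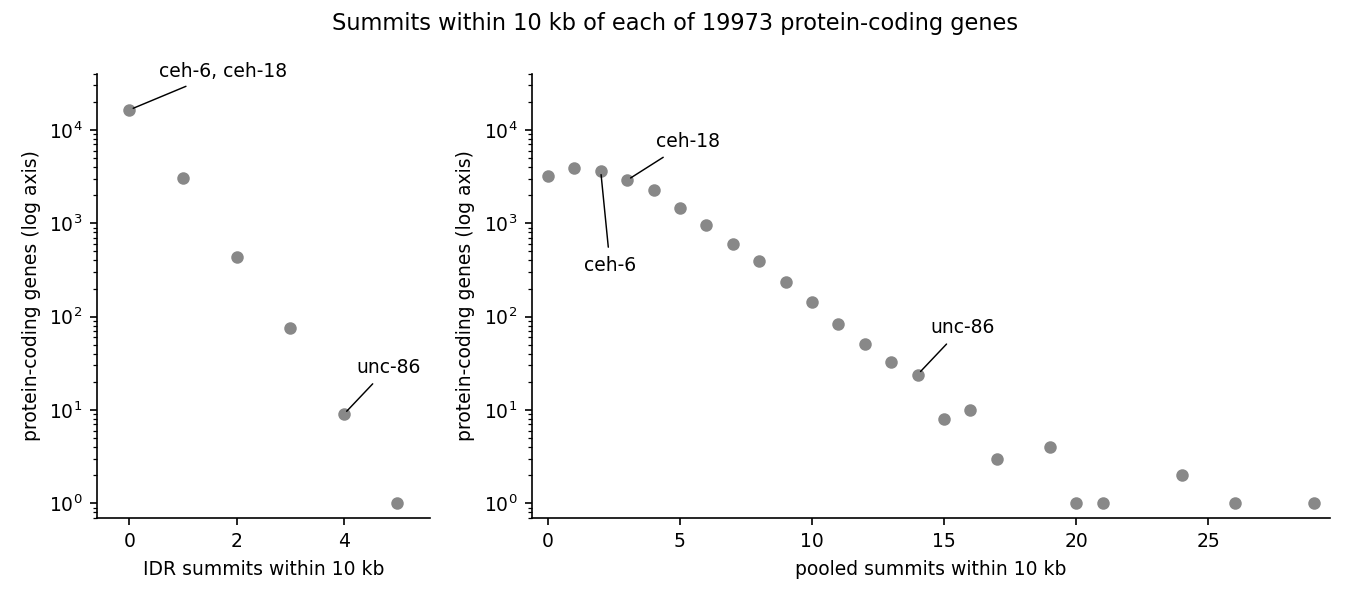
Number of protein-coding genes (log axis) by their number of IDR summits (left) and pooled summits (right) within 10 kb, 1 point for each number of summits. The unc-86 gene sits in the upper tail at 4 and 14, and ceh-6 and ceh-18 sit at 0 in the IDR list, where most genes are, and at 2 and 3 in the pooled list, near the median of 2.

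The ranges searched differed in length with the genes. The range was 23.6 kb for unc-86, 24.5 kb for ceh-6 and 34.4 kb for ceh-18, so unc-86 had the shortest range and the most summits. Per 10 kb of range the pooled list had 5.93 summits at unc-86, 0.817 at ceh-6 and 0.871 at ceh-18. At least as many per 10 kb as at unc-86 were found at 6 genes, which is 0.0300%. They include unc-86 itself and its neighbour C30A5.16, which had 7.10 per 10 kb and shares summits with it. The gene with the most pooled summits, hmr-1, which encodes the cadherin of worm adherens junctions, had 29 over a gene of 58.9 kb.

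The strongest signals at unc-86 were high within the pooled list, and those of its IDR summits were low within the IDR list. Its pooled entries ranged widely, down to 25.9 (rank 12378), below the pooled median of 31.8. The strongest pooled signal within 10 kb was 81.1 at unc-86, 42.3 at ceh-6 and 31.4 at ceh-18. A signal of at least 81.1 was found within 10 kb of 11.9% of genes, of at least 42.3 at 37.4% and of at least 31.4 at 66.7%. The 4 IDR summits of unc-86 had signals below the IDR median of 90.9, at ranks 506, 605, 636 and 680 of 816. In the pooled list 5 of the 14 entries at unc-86 (35.7%) had a q value of 0.05 or lower, against 1097 of 12784 (8.58%) in the whole list. Of the entries at ceh-6 and ceh-18, 0 of 2 and 0 of 3 did.

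From the start of the longer transcript outward, the summits fell on both sides of unc-86 and in its first intron. The gene has 2 annotated transcripts, of which the longer starts at 8216336 and encodes 357 amino acids and the shorter starts at 8214653 and encodes 301. The shorter one starts inside the span of the longer.

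The summit closest to the longer transcript's start lay 25 bp upstream of it, at 8216361. Its signal was 74.4 in the pooled list, 45.3 in replicate 1 (rank 458) and 28.4 in replicate 2 (rank 1443). It was nearer the top of replicate 1. The summit in the first intron, at 8215196, lay 543 bp upstream of the shorter transcript's start. Its signal was 72.8 in the pooled list, 40.2 in replicate 1 (rank 607) and 32.5 in replicate 2 (rank 959). This was the IDR summit of unc-86 with the closest ranks in the replicates.

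Farther upstream, the summit at 8217567 lay 1231 bp from the start of unc-86 and 652 bp upstream of C30A5.16, a protein-coding gene. Its pooled signal was 71.0, with 27.4 in replicate 1 (rank 1554) and 42.7 in replicate 2 (rank 489), so here replicate 2 ranked it higher. The summit at 8220303, 3967 bp upstream of unc-86, had the highest pooled signal of the locus at 81.1. It was the strongest summit of replicate 1 in the range (51.5, rank 361) but ranked lower in replicate 2 (23.4, rank 2995). There it was still above the list's median signal of 17.3. Of the 4 IDR summits, 3 thus ranked higher in replicate 1 and 1 in replicate 2.

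**Figure D2:**
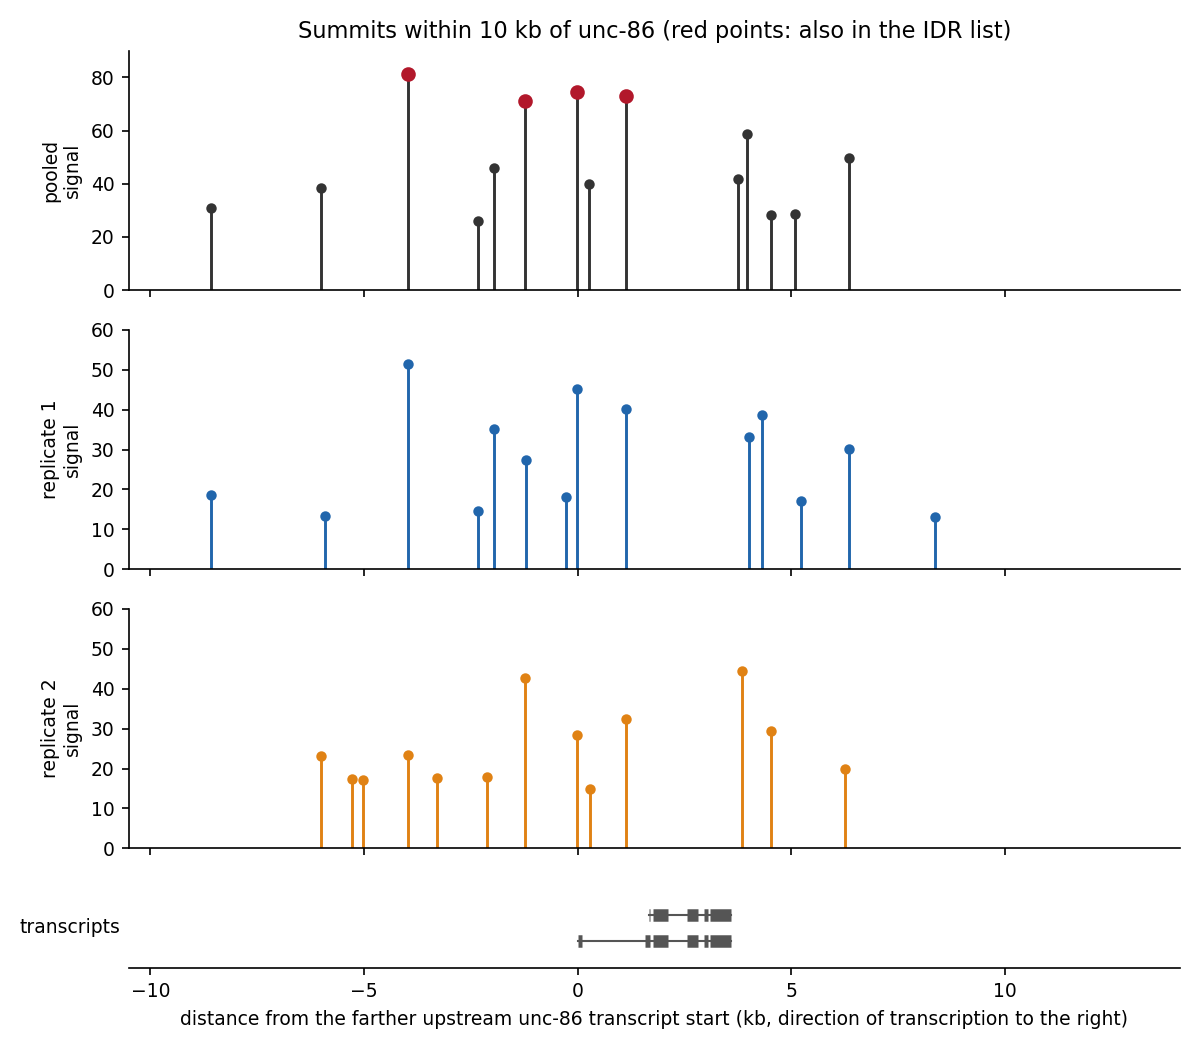
Signal of each summit within 10 kb of unc-86 in the pooled, replicate 1 and replicate 2 lists (1 panel each), by distance from the start of the longer transcript (kb, upstream of the gene to the left), with both unc-86 transcripts drawn to scale. Red points are also in the IDR list and lie in the first intron, at the start and upstream, and further pooled summits lie beyond the 3′ end.

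The other 10 pooled summits at unc-86 lay beyond its 3′ end, in the first intron and upstream. Beyond the 3′ end lay 5, at 148 to 2757 bp from the gene, with signals from 28.3 to 58.8. The strongest of them, at 8212369, had a pooled rank of 1013, outside the IDR list. In this stretch both replicates had strong summits, but at different bases. Replicate 1 had one at 8212024 (38.8, rank 665) and another at 8212316 (33.3, rank 951). Replicate 2 had its strongest summit of the whole range there, at 8212487 (44.5, rank 436), which lay 171 bp from the nearest summit of replicate 1. None of these is an IDR summit. The pooled summit farthest out on this side, at 8209983 (49.6), lay in the noncoding RNA gene C30A5.14, 108 bp upstream of the protein-coding gene C30A5.10.

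In the first intron there was a second pooled summit, at 8216059 (40.0), inside the noncoding RNA gene C30A5.13, which replicate 2 listed at rank 14658 and replicate 1 did not list within 100 bp. Upstream, 2 summits lay inside C30A5.16, of which that at 8218301 (45.8) was among the stronger entries of replicate 1 (35.2, rank 828). The summit at 8222343 (38.4) lay in a pseudogene and was listed in replicate 2 at 23.2 (rank 3107). The outermost, at 8224920 (30.9), lay 177 bp upstream of mob-4, which encodes a Mob family protein, and was listed in replicate 1 at 18.7 (rank 5699). Of the 5 in the intron and upstream, that at 8218301 had the highest signal, and none was listed by both replicates within 100 bp. No tRNA, snoRNA or snRNA gene was near: the closest to any of the 14 was the snoRNA gene C02F5.15, 2943 bp from the outermost summit, and it was 7560 bp or more from the IDR summits.

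A pooled summit counted as listed by a replicate where that replicate had a summit within 100 bp. By this measure 5 of the 14 at unc-86 were in both replicates, 4 in replicate 1 alone, 3 in replicate 2 alone and 2 in neither. The 5 were the IDR summits and that at 8209983. In the whole pooled list 3825 of 12784 (29.9%) were in both, against 35.7% at unc-86. Compared directly, 4 of the 14 summits of replicate 1 (28.6%) were at one of the 13 of replicate 2 (30.8%), where the whole lists shared 3790 summits, 21.7% of replicate 1 and 20.5% of replicate 2. With a limit of 200 bp, 8 of the 14 pooled summits were in both replicates. The replicates thus had nearly the same number of summits at unc-86, and how many were at the same place depended on the limit.

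**Figure D3:**
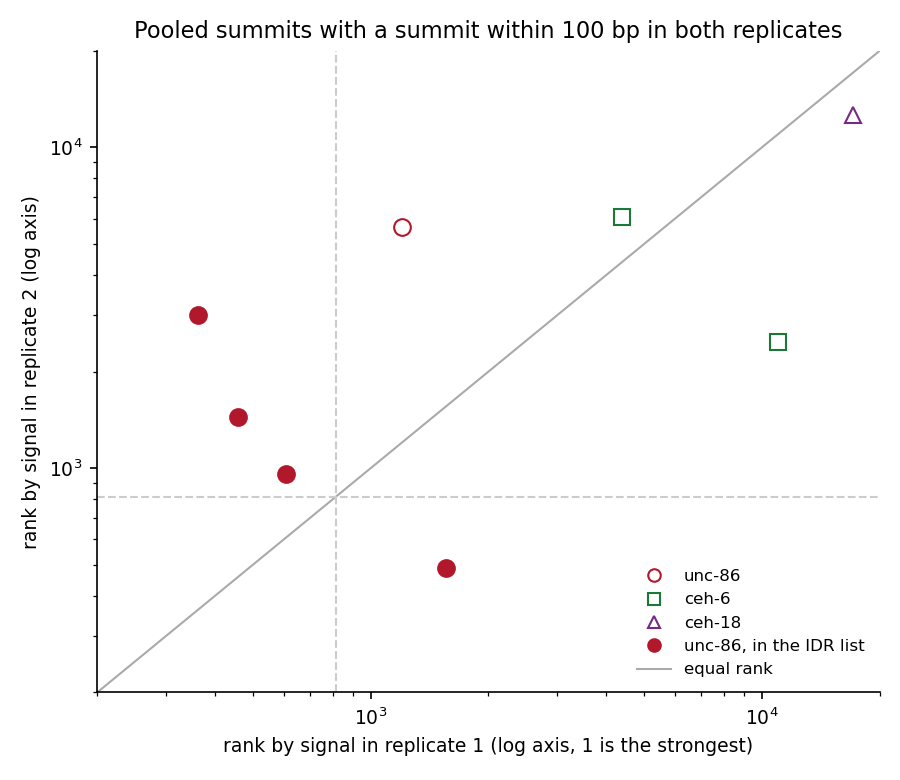
Ranks of pooled summits within 10 kb of the POU genes in replicate 1 (x axis) and replicate 2 (y axis, both log), for summits listed by both replicates within 100 bp. Dashed lines mark rank 816, the length of the IDR list, the diagonal marks equal rank, and no summit of the 3 genes lies within the first 816 of both replicates.

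The cluster at unc-86 lay between stretches with no pooled summit. With summits joined while the gap to the next was under 3 kb, a limit chosen after the values were seen, a run of 15 pooled summits spanned 17.8 kb from 8209983 to 8227737 and touched 4 protein-coding genes, among them unc-86, C30A5.16 and mob-4. The widest gap inside it was 2817 bp. No pooled summit lay in the 16.1 kb before it, which hold unc-36, a calcium channel subunit gene, and snb-5, nor in the 22.0 kb after it, which touch 14 protein-coding genes. The replicates had 2 and 3 summits in the stretch before and 1 each in the stretch after, against 13 and 14 inside the run. The joining rule itself sets a gap of at least 3 kb at each end of any run. Over the genome the mean per 5-kb bin was 0.637 pooled summits, 0.872 of replicate 1 and 0.921 of replicate 2. How often stretches of these lengths hold no pooled summit was not counted.

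Of 7505 such runs in the genome, the run at unc-86 was the longest by number of summits at this gap. It was the only run of that length, which is 0.0133% of the runs. The median run had 1 summit. The place of the run depended on the gap allowed and on the replicate. At 2 kb it broke to 7 summits, 23 runs had at least as many, and the longest run had 10. At 4 kb and 5 kb it stayed at 15, 9 and 22 runs had at least as many, and the longest had 24. In lists from one replicate cut to the pooled length, it had 12 summits without replicate 1, where 4 runs had at least as many and the longest had 14. It had 10 without replicate 2, where 7 had at least as many and the longest had 18. These counts include the run at unc-86 itself, which was the longest only at the 3 kb gap in the pooled list.

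**Figure D4:**
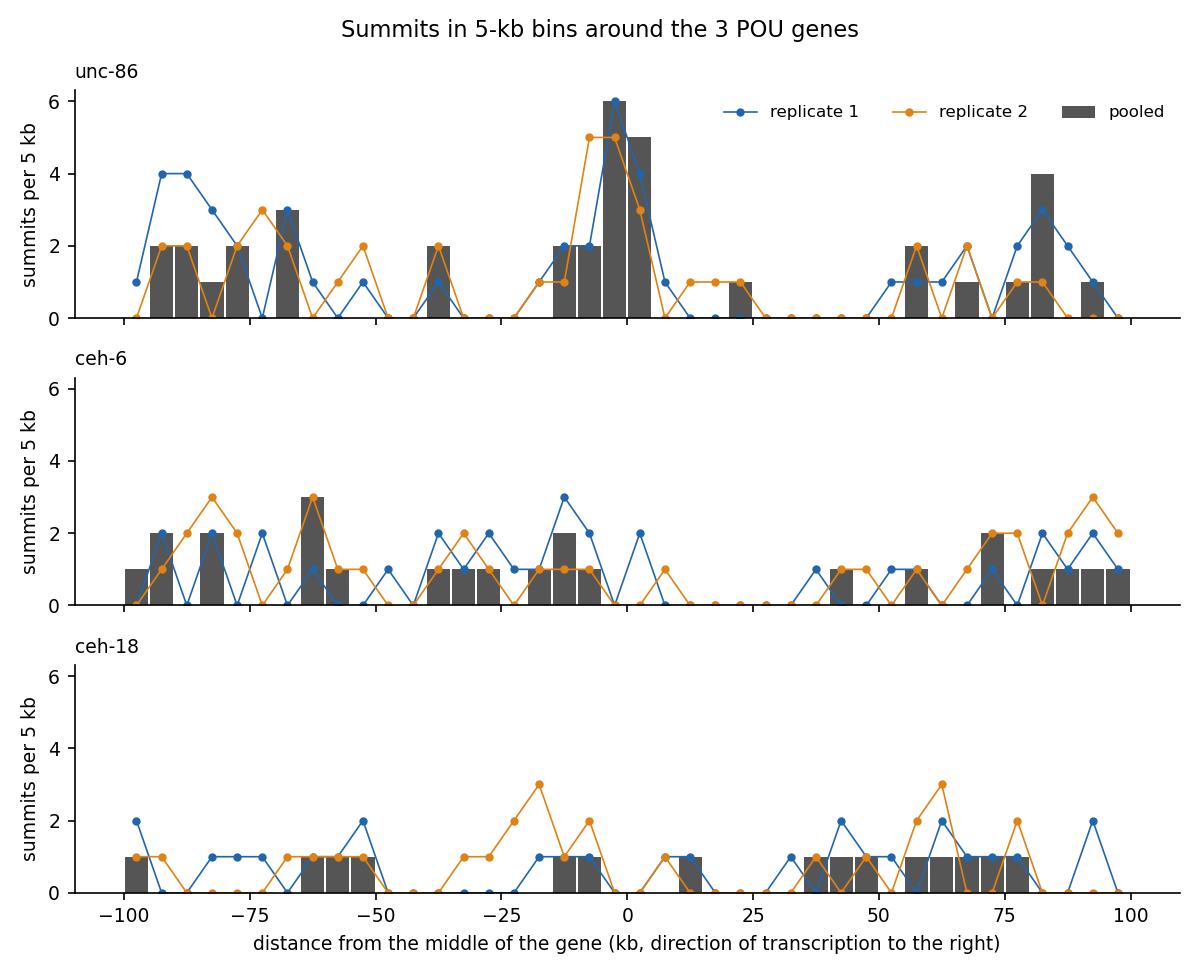
Number of pooled summits (bars) and of summits in each replicate (lines) in 5-kb bins over 100 kb to each side of the middle of unc-86, ceh-6 and ceh-18, with upstream to the left. The bins at unc-86 reach 6 pooled summits, and bins near the middle of ceh-6 and ceh-18 hold at most 1.

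In bins of 5 kb within 10 kb of the middle of unc-86, the fullest had 6 pooled summits. As many were found in 9 of 20056 bins laid along the chromosomes (0.0449%). The fullest had 3 IDR summits, as 1 of the bins along the chromosomes had. In replicate 1 the fullest bin had 6 (as many in 22 bins, 0.110%) and in replicate 2 it had 5 (110 bins, 0.548%). Near the middle of ceh-6 and ceh-18 the fullest bin had 1 pooled summit, and 42.7% of bins had at least as many. These shares are over single bins, while the value of each gene is the fullest of several bins around its middle. They are thus lower than the share of places whose fullest bin would reach the same value.

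The neighbours of unc-86 are counted with the same summits. The 10 kb ranges of mob-4 and C30A5.16 each held all 4 of its IDR summits, C30A5.10 held 3 and fbxl-1, an F-box gene, 1. C30A5.16 had 15 pooled summits in range, 1 more than unc-86. Distance alone does not assign a summit to one of these genes.

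Genes that share none of these pooled summits but had a similar pattern were ranked by the distance of log2(count + 1) over the 4 lists. The closest was epc-1, an Enhancer of Polycomb homolog, at a distance of 0.32 with 4, 16, 17 and 13 summits in the IDR, pooled, replicate 1 and replicate 2 lists. Next came ppfr-1, a regulatory subunit gene of protein phosphatase 4, at 0.42 with 3, 16, 16 and 14. They were followed by W03C9.5 (0.45), dhgd-1 (0.47) and Y22D7AL.9 (0.48). These are likenesses in number of summits only.

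At ceh-6 no summit of the pooled list lay in the gene. Both pooled summits were upstream, at 8508908 and at 8511444, which are 6304 and 8840 bp from its start. The first had a signal of 42.3 in the pooled list, 15.3 in replicate 1 (rank 10984) and 24.6 in replicate 2 (rank 2466). The second had 39.6, 20.1 (rank 4378) and 19.5 (rank 6063). Both summits were in both replicates, and neither was strong in replicate 1.

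Both were closer to a start of sec-12, the neighbouring gene, than to ceh-6, the first at 2407 bp from it and the second at 129 bp. Inside ceh-6, replicate 1 had a summit in the last coding exon (8498480, 16.4, rank 8859) and one in intron 5 (8498734, 13.1, rank 17036), and replicate 2 had none. Within 5 kb of ceh-6 the pooled list had 0 summits.

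At ceh-18 the pooled summits were weaker than at ceh-6, and none lay in the gene. The nearest, at 3860250, lay 2453 bp upstream of its start, with a signal of 28.6 in the pooled list and 24.3 in replicate 2 (rank 2582). The nearest summit of replicate 1 was 476 bp away. The summit at 3862038, 4241 bp upstream, was in both replicates and was the strongest of the 3 at 31.4, with 13.1 in replicate 1 (rank 17041) and 15.6 in replicate 2 (rank 12642). These ranks are below the middle of both lists. The third, at 3837536 (26.9), lay 5831 bp beyond the 3′ end and was listed by replicate 1 alone (19.5, rank 4884).

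Inside ceh-18, replicate 2 had a summit in the first intron (3856690, 19.8, rank 5664), 324 bp upstream of the start of an inner transcript. A first-intron summit before an inner start was also seen at unc-86, but there it was in both replicates and in the IDR list. Both replicates also had a weak summit in the last exon's untranslated part, at 3843417 (14.6) in replicate 1 and 3844145 (17.5) in replicate 2. In a list from replicate 2 alone, cut to the pooled length, ceh-18 had 6 summits without replicate 1, against 3 pooled.

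**Figure D5:**
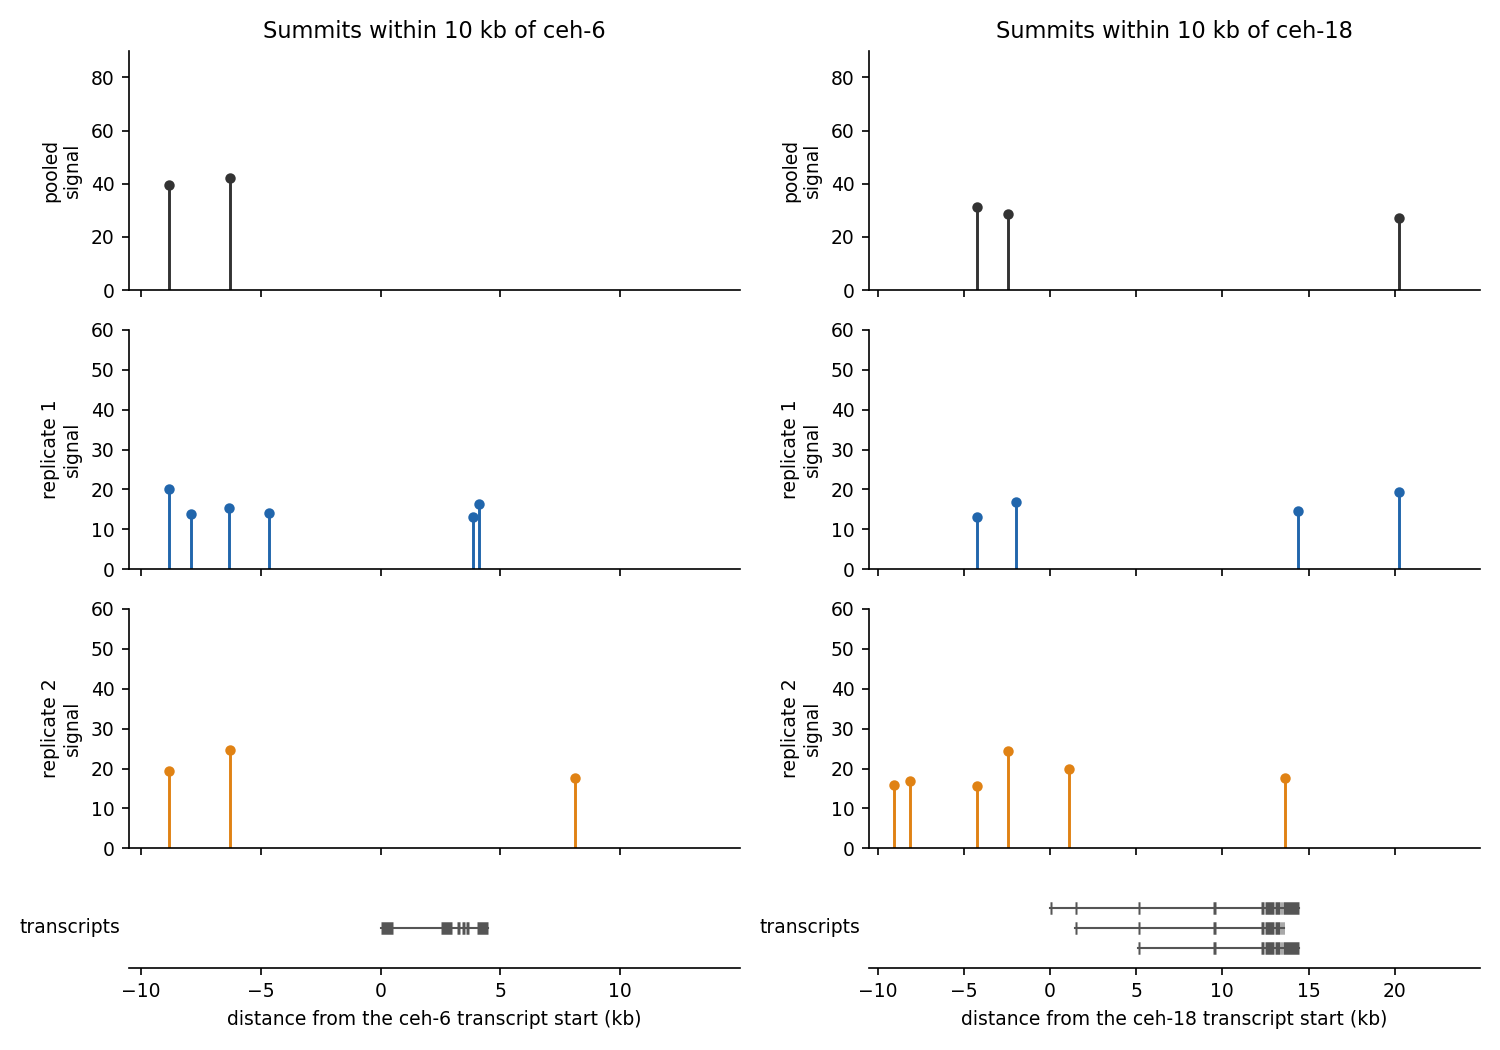
Signal of each summit within 10 kb of ceh-6 (left) and ceh-18 (right) in the pooled, replicate 1 and replicate 2 lists, by distance from the farthest upstream transcript start (kb, upstream to the left), with the transcripts drawn to scale. Neither gene has an IDR summit within 10 kb, and the pooled summits lie outside both genes at signals from 26.9 to 42.3.

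The 201-bp windows around the pooled summits of the 3 genes were searched for the same patterns. Of the 19 pooled summit windows, that in the unc-86 intron alone held any of the 5 patterns, with TAATTAAT once and TAATTA 3 times. In the genome's 201-bp windows, TAATTA was in 9.32%, TAATTAAT in 1.95%, AATGCAT in 2.91%, ATGCAAAT in 1.74% and GAGAGAGA in 1.32%. All pooled windows had them, in the same order, in 9.25%, 2.38%, 3.15%, 1.74% and 3.26%. The IDR windows had them in 6.37%, 1.72%, 4.29%, 1.10% and 6.99%. At such shares few matches would be found in any 19 windows. The POU subsite printed above lies just outside the window of its summit, with its centre at 8220404, 101 bp away.

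Over the whole ranges the POU subsite occurred 3 times at unc-86, 4 times at ceh-6 and 5 times at ceh-18. Per 10 kb this was 1.27, 1.63 and 1.45, against 1.91 in the genome. Overlapping matches at neighbouring bases were counted separately at each gene. The octamer occurred 1, 3 and 5 times (0.424, 1.22 and 1.45 per 10 kb, against 0.914 in the genome). The homeodomain core occurred 16, 20 and 26 times (6.78, 8.17 and 7.55 per 10 kb, against 5.29 in the genome). The extended site occurred 3, 3 and 2 times (1.27, 1.22 and 0.581 per 10 kb). Per 10 kb, unc-86 thus had the lowest rate of the 3 genes for the POU subsite, octamer and core. Its core rate was still above that of the genome, as were those of ceh-6 and ceh-18. For the extended site unc-86 and ceh-6 had 3 matches each, and their rates differ only by the length of the range. Both rates were close to the genome's 1.25. Most of these counts are small. The IDR windows at unc-86 differed in base composition, from 30.3% GC in the intron to 56.2% at the start of the longer transcript, about an IDR median of 44.3%. The windows at 8217567 and 8220303 had 39.3% and 43.3%.

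The genes that act before, with and after the POU factors were counted from lists taken from textbook knowledge. Over all 21 genes, 5 (23.8%) had an IDR summit within 10 kb, against 17.8% of all genes, and 19 (90.5%) a pooled summit, against 84.0%. The median member had 3 pooled summits, against 2. These shares are near the background.

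Among 5 regulators of unc-86, all had a pooled summit and 1 an IDR summit. That was ham-3, which encodes a chromatin remodelling subunit, at a signal of 99.5 (rank 332), 904 bp outside the gene. The proneural gene lin-32 had 61.8 (rank 917), 39 bp from a tRNA gene, and hlh-2, which encodes the partner of proneural factors, had 49.5 (rank 1526). The strongest summit at these regulators was thus that of ham-3.

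Among 4 partners of UNC-86, 2 had an IDR summit. These were cfi-1, which encodes an ARID protein, at 182 (rank 94) and 4932 bp outside the gene, and the LIM homeobox gene ttx-3 at 146 (rank 155) and 6554 bp outside it. The summit counted for ttx-3 lay inside a tRNA gene. The LIM homeobox gene ceh-14 had a pooled summit of 28.5 (rank 9172), and mec-3 had no pooled summit. In the single lists mec-3 had 2 summits of replicate 1 and 1 of replicate 2.

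Among 8 target genes, 1 had an IDR summit and 7 a pooled one. The vesicular monoamine transporter gene cat-1 had a summit of 165 (rank 118) inside the gene and 22 bp from a tRNA gene. The touch receptor channel gene mec-4 had 50.4 (rank 1456), and the tubulin gene mec-7 had 50.3 (rank 1458), 61 bp from a tRNA gene. No pooled summit was in range of tph-1, which encodes tryptophan hydroxylase for serotonin synthesis, but 2 of replicate 1 and 4 of replicate 2 were. The strongest summit at these targets was thus beside a small RNA gene.

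Among the 4 genes that act with or after CEH-6, 1 had an IDR summit. That was egl-27, which encodes a protein of the MTA family, at 148 (rank 148), 5332 bp outside the gene and inside a tRNA gene. The aquaporin gene aqp-8 had 62.1 (rank 910) and the SRY-box gene sox-2 61.9 (rank 914). Both were below the IDR list's lowest signal of 64.7. Among the 5 listed genes with an IDR summit, the strongest summits of ttx-3, cat-1 and egl-27 were thus in or within 22 bp of a tRNA gene, and those at unc-86 were not near one. Whether a small RNA gene or the listed gene set these signals was not tested.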

How the data were processed

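The samples were 2 biological replicates, per the labels, and each list names a control alignment, per the text files deposited beside the lists. The authors called peaks per replicate and on both replicates together. No label or file names the aligner, the peak caller, the IDR threshold or the depth: not given in the sources used here. Signal and −log10 q value are the authors' values per peak, as deposited, and served to order the entries of one list. The ce11 lists were used, and the ce10 lists were not. Columns of other samples numbered 0.

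The members, lists and distances were chosen with earlier results of these data known. A summit counted for a gene if it lay in the gene or within 10 kb of either end, and summits of different lists within 100 bp counted as the same. Patterns were counted in 201-bp windows on either strand, against all such windows of the genome laid end to end. No test was run, since there was 1 group, and shares over the 19973 genes serve as background. Genes share summits and are not independent. Named genes were the 3 POU genes, genes sharing an IDR summit of unc-86 (1 of them is not reported here), up to 3 members per list by pooled signal, and the 5 genes most like unc-86. The gene hmr-1, the genes at the edges of the run and the members without a pooled summit were named after their values were seen. The counting was tested on simulated data. Python 3.11.15 was used with numpy 2.4.6, pandas 2.3.3 and matplotlib 3.10.9. Alternatives changed the distances, left out a replicate, or required a q value of 0.05 or lower.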

Additional observations from a re-analysis of the deposited data

How the results depend on the processing

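In each of the 7 alternative ranges, lists and limits run for the count of pooled summits, unc-86 had more than ceh-6 and more than ceh-18. Without replicates, each in turn, unc-86 had 2 to 4 summits in the place of its 4 IDR ones and ceh-18 3 to 6 in the place of its 3 pooled ones. With a q value of 0.05 or lower, chosen after the data were seen, unc-86 had 5 pooled summits, ceh-6 0 and ceh-18 0. Within 5 kb ceh-6 had 0, and within 20 kb it had 4. With 200 bp as the limit for a shared summit, 8 of the pooled summits of unc-86 were in both replicates, and with the replicates' lists cut to the pooled length 0 of ceh-18 were. Genes with at least as many IDR summits as unc-86, itself included, numbered 3 at 5 kb, 48 at 20 kb and 19 to 495 without a replicate. Genes with at least as many pooled summits numbered 35, 247 and 128 to 163. Runs at least as long as that at unc-86, itself included, numbered 23, 9 and 22 at gaps under 2, 4 and 5 kb. They numbered 4 to 7 without a replicate. These settings were chosen after the data were seen, and in each a longer run was found elsewhere. The cause was not tested. Of the 63 values recomputed, 41 stayed within the fold-change limit set for a count. These include the IDR counts of ceh-6 and ceh-18, which were 0 in every setting. The numbers of genes or runs that reach the values of unc-86 moved beyond the limit in every setting but 1. That setting merged summits closer than 100 bp. No paired analysis was possible because there was 1 group. Depth is unknown, so weak summits may be missed or be background, and whole animals do not show in which cells a summit arose.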
